A study of Mus musculus with 2 samples.

Results

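Transcripts that mark the endothelial, mural, fibroblast and immune cells of the heart were followed in an RNA immunoprecipitation (RIP-seq) experiment whose bait, FLAG-tagged NAT10, was expressed from a promoter of heart muscle cells. The 10 genes were Cldn5, Eng, Flt1, Fabp4, Pecam1, Cdh5, Pdgfrb, Pdgfra, Col1a1 and Cd74, out of 21770 annotated protein-coding genes. They were selected on measured values: a marker whose summit had already been seen in the deposited list was taken in, together with Pecam1 and Cdh5, which had none. A summit is a single base at which the RIP signal was locally highest within a peak called over Input. A peak can hold more than 1 summit. The number of members with a summit, and their scores, are therefore a description and were not tested. Of the 10 genes, 8 had a summit and each of these had exactly 1.

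The RIP library held RNA that came down with anti-FLAG beads, and the Input library held RNA from 10% of the same lysate. Both came from hearts of mice labelled WT that had received AAV9-cTnT-FLAG-NAT10 under the skin at day 1 after birth, with hearts taken 20 days later. There was 1 RIP library and 1 Input library, so no value has a replicate check, and the number of hearts behind the lysate is not given in the sources used here. All samples carried the FLAG-NAT10 virus. RNA bound by the beads in hearts that lack the bait was not analysed here, so such binding and binding to NAT10 cannot be told apart.

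NAT10 is an acetyltransferase that makes N4-acetylcytidine in RNA. The cTnT promoter, that of the cardiac troponin T gene, is used in gene transfer to restrict expression to cardiomyocytes. The heart also holds a dense capillary bed of endothelial cells, the pericytes and smooth muscle cells that wrap its vessels, matrix-producing fibroblasts and resident macrophages. In those cells the promoter should be silent, which is why their transcripts were set apart. The table lists genes and not cells, so the cell from which a transcript came cannot be read from it. As this was whole tissue, fewer cells of a type and less RNA per cell cannot be told apart either.

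The deposited list held 2020 summits in 1600 peaks. The authors' score of each was a -log10 value of the peak caller, RIP over Input, and whether it is of a p-value or a q-value is not given in the sources used here. Scores had a median of 12.5 and quartiles of 5.83 and 28.3. The lowest was 1.32, close to the 1.30 that a p-value of 0.05 would give. The list gave no read counts and no fold enrichment, so depth is unknown and a score can rise with the abundance of a transcript as well as with its enrichment. A gene counted as without a summit fell short of the list's threshold, or held a summit to which no gene was assigned. The lack of a summit does not show that its RNA was absent.

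Endothelial genes gave 4 of the 8 summits. Cldn5, the tight junction protein claudin-5, which is best known from endothelium and has also been described in cardiomyocytes, had a score of 23.4 at position 18778046 on chromosome 16 (GRCm38, as all positions here), in the 3' UTR of this gene of a single exon. Eng, endoglin, a co-receptor for ligands of the TGF-beta and BMP family, had 20.2 at 32681932 on chromosome 2, also in the 3' UTR. Both lay between the median and the upper quartile of the list, since 69.1% of all summits scored no higher than Cldn5 and 64.7% no higher than Eng. Fabp4, a fatty acid binding protein of capillary endothelium and fat cells, had 8.29 at 10204477 on chromosome 3, in its last exon. Flt1, the VEGF receptor 1, had 5.12 at 147562228 on chromosome 5, in its 3' UTR, and 21.5% of all summits scored no higher. The junctional proteins Pecam1 (PECAM-1, CD31) and Cdh5 (VE-cadherin), which are widely used to define endothelial cells, had no summit.

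Both of those genes were also empty when every summit inside their RefSeq GRCm38 bounds was taken, whatever gene the table named. Pecam1 spans 106654213 to 106715281 on chromosome 11, and the nearest summit lay 320249 bases away in Bptf. Cdh5 spans 104101613 to 104144504 on chromosome 8, and the nearest summit was 483761 bases away in Rrad. Their canonical transcripts, of 3678 and 4021 bases, were within the range of the 8 genes with a summit (1360 to 6895 bases, median 4448). Cdh5 and Cldn5 stand side by side at endothelial junctions. That one reached the list and the other did not was fixed by the choice of members.

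The stromal genes gave the strongest summit of the group and one of the weakest. Col1a1, the alpha-1 chain of type I collagen and a product of fibroblasts, had a score of 24.9 at 94951694 on chromosome 11 in the 3' UTR. Pdgfrb, the PDGF receptor that defines pericytes, had 18.1 at 61084831 on chromosome 18 in the 3' UTR. Pdgfra, the related receptor of fibroblasts, had 4.10 at 75195325 on chromosome 5 in the 3' UTR, and 15.3% of all summits scored no higher. The 2 receptors of the same ligand family were therefore on opposite sides of the list's median. Cd74, the invariant chain that guides MHC class II molecules in antigen-presenting cells, had the lowest score of the 8, 2.69 at 60810299 on chromosome 18, and it was the only one of them placed in an intron (intron 5). The table appears to use a single transcript model per gene, which limits exon and intron calls.

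**Figure D1:**
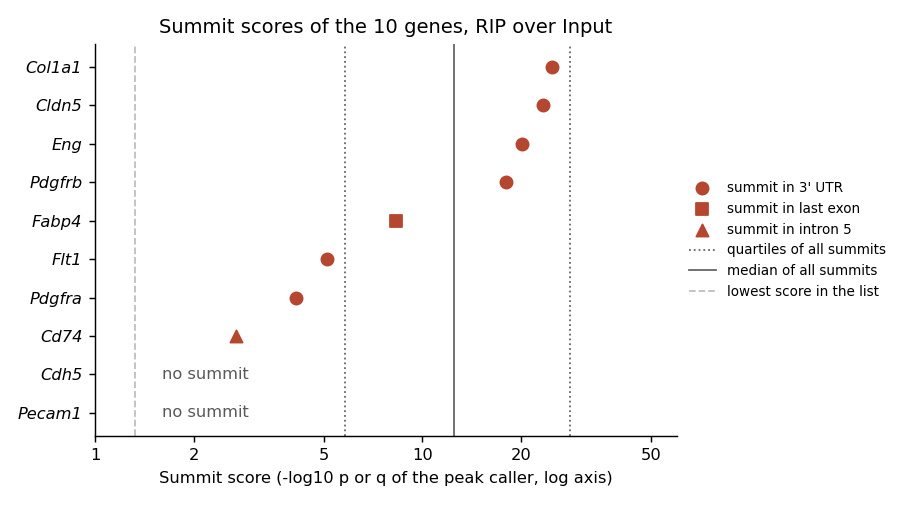
Score of the summit in each of the 10 genes (horizontal log axis, -log10 p or q of RIP over Input in 1 library of each), with the marker shape giving the region in the table and vertical lines giving the quartiles and the lowest score of all 2020 summits. Col1a1, Cldn5, Eng and Pdgfrb lie between the median (12.5) and the upper quartile (28.3), Fabp4 lies between the lower quartile (5.83) and the median, Flt1, Pdgfra and Cd74 lie below the lower quartile, and Pecam1 and Cdh5 have no summit.

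Set against the whole list, the 8 scores ran from 2.69 to 24.9 with a median of 13.2. Over all summits the median was 12.5. Of the 8, 4 were at or above that median, 1 was between the lower quartile and the median, 3 were below the lower quartile and 0 reached the upper quartile. The count at the upper quartile, 0 of 10 (exact 95% counting interval up to 30.8%), was near the share over all coding genes, 226 of 21770 (1.04%), and is no result about the 10 genes. At the median threshold 4 of the 10 genes were left, beside 2.29% of coding genes. The choice of members for their summits raises this count too, so it is no independent evidence. With no threshold beyond the list's own, 8 of the 10 had a summit, beside 4.22% of coding genes, a count that the choice of members fixes. By its strongest summit, Col1a1 was in place 269 among the 919 coding genes with one, Cldn5 in place 289, Eng in place 338, Pdgfrb in place 373, Fabp4 in place 616, Flt1 in place 772, Pdgfra in place 832 and Cd74 in place 875. With 1 pair of libraries, the spread that would show which neighbours in this order differ is unknown. The weakest member, Cd74, had 2.69 against a list minimum of 1.32, and values below the threshold are not in the list.

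Each of the 8 genes with a summit had a single one. Of the 919 coding genes with a summit, 642 (69.9%) also had exactly 1, so this is no result about the 8 genes. Among those 642 the median score was 11.2, with quartiles of 6.09 and 21.9, so that Col1a1 and Cldn5 stood above the upper quartile of genes with 1 summit. Of the 642 genes, 131 scored above Col1a1 and 39 scored below Cd74. The members' median of 13.2 had an interval from 2.69 to 24.9, their whole range, which covers both the 11.2 of genes with 1 summit and the 14.2 of the strongest score over all genes with a summit.

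A marker list of each cell type put the 10 genes in context. These lists were drawn up with earlier results on the same data known. Of 28 endothelial markers, 5 had a summit (17.9%, exact 95% counting interval 6.06 to 36.9), and the one beyond the 4 already described was Mmrn2, multimerin-2, an endothelial matrix protein, with 10.3 in the 3' UTR. Kdr, Flt4, Pecam1 and Cdh5 were among the 23 without one. Of 15 mural and smooth muscle markers, Pdgfrb alone had a summit (6.67%, 0.17 to 31.9), while Rgs5, Cspg4, Kcnj8 and Abcc9 had none. Of 27 fibroblast and matrix markers, 2 had one (7.41%, 0.91 to 24.3), Col1a1 and Pdgfra, while Col1a2, Col3a1, Dcn and Lum had none. A summit of 19.2 with no gene assigned lay within the RefSeq bounds of Col6a2, also on this list. Under those bounds 3 of 27 (11.1%) had a summit. Of 29 macrophage and leukocyte markers, 2 had one (6.90%, 0.85 to 22.8). These were Cd74 and Laptm5, a lysosomal membrane protein of blood cells, which at 16.3 in the 3' UTR scored above Cd74. The intervals of the last 3 lists include the 4.22% of all coding genes, and the lower bound of the endothelial list was above it. The intervals cover counting error only. Because Cldn5, Eng, Flt1 and Fabp4 were known to have summits when the endothelial list was written, its share is not independent evidence.

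No marker of erythroid cells (0 of 10, interval up to 30.8%), of Schwann cells and neurons (0 of 14, up to 23.2%) or of epicardium and adipocytes (0 of 13, up to 24.7%) had a summit. Over all 7 lists of cells other than cardiomyocytes, 10 of 136 markers had one (7.35%, 3.58 to 13.1). Under RefSeq bounds, with Col6a2, it was 11 of 136 (8.09%), and what follows keeps to the 10. All 10 had exactly 1 summit, beside 69.9% of all coding genes with a summit. Of these 10 summits 8 were in a 3' UTR, beside 65.9% for coding genes with exactly 1 summit. Both counts are given as a description only. With the threshold raised to the upper quartile, 0 of 136 were left (up to 2.68%). The intervals of 10 of 136 and of 0 of 136 include the share over all coding genes, 4.22% at any score and 1.04% at the upper quartile. Neither of these shares is therefore a result about these markers.

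Cardiomyocyte markers had a summit in 17 of 31 cases (54.8%, 36.0 to 72.7). Actc1, Tnnt2, Myl2 and Myl3 were among those without one. No gene was assigned to a summit at 135852139 on chromosome 1 (score 35.9), which RefSeq bounds put within Tnnt2, the cardiac troponin T gene. The same held for a summit at 122099871 on chromosome 5 (score 9.23), within Myl2. Neither gene is counted among the 17. The markers of other cells with a summit are mostly the genes described above (8 of 10), which were taken in for their summits, and the lists were written with results known. The shares and scores of both kinds of marker are therefore given side by side as a description. Across the 10 markers of other cells the strongest scores had a median of 13.3 and a maximum of 24.9, against a median of 109 and a maximum of 1524 in the 17 cardiomyocyte markers. Of the 17, 14 scored above Col1a1, the highest of the other cells, and 13 of the 31 listed had a score of at least the upper quartile. Myh6, the alpha myosin heavy chain, had the maximum. The 3 below Col1a1 were Cacna1c, a calcium channel subunit, at 9.25, Tnni3, cardiac troponin I, at 6.09 and Ckmt2, a mitochondrial creatine kinase, at 1.45. Ckmt2 was also below Cd74, the weakest of the members with a summit. A low score was therefore found for some heart muscle transcripts as well.

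A gene with many summits has more chances of a high maximum, and 12 of the 17 cardiomyocyte markers had more than 1. The other 5 had 1 summit, as the 8 members with a summit did. They were Tnnc1 at 351, Fabp3 at 223, Tcap at 109, Tnni3 and Ckmt2, with a median of 109 and an interval of that median from 1.45 to 351, which is their whole range. In this smaller comparison 3 of 5 were above all 8 members and 1 of 5 was below all of them. How much of the difference follows from the abundance of muscle transcripts was not tested, since the table holds no Input levels.

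**Figure D2:**
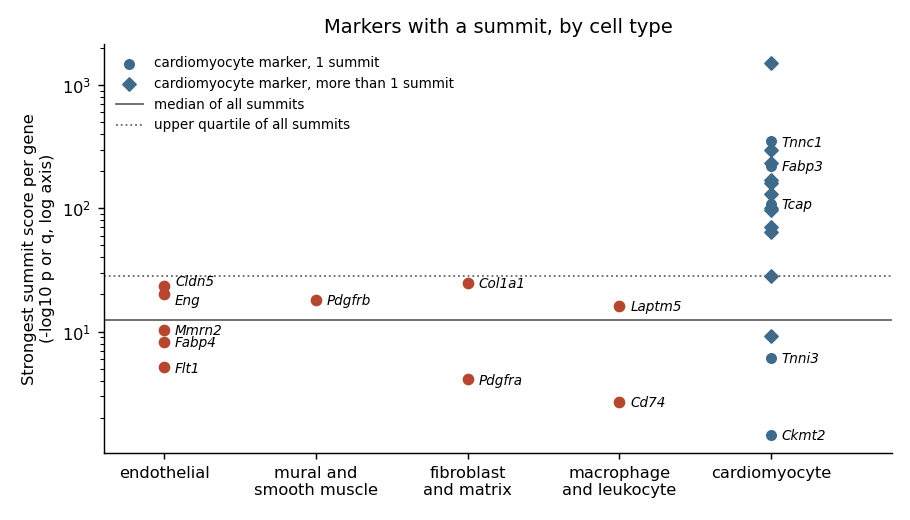
Strongest summit score of each marker with a summit (vertical log axis, -log10 p or q), by cell type, with horizontal lines at the median and the upper quartile of all summits. Every marker of the 4 other cell types lies below the upper quartile of 28.3, between 2.69 for Cd74 and 24.9 for Col1a1, and cardiomyocyte markers range from 1.45 to 1524.

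**Figure D3:**
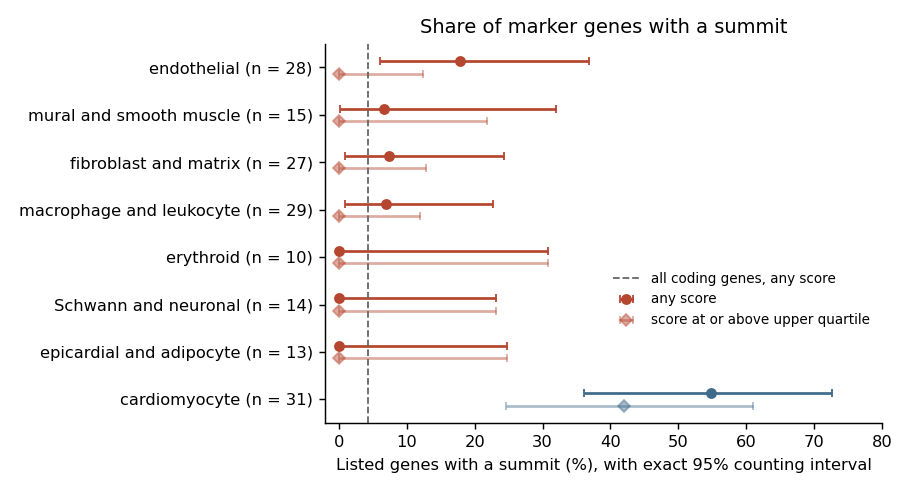
Share of each marker list with a summit (horizontal axis, percent, with exact 95% counting intervals), at any score and with the threshold raised to the upper quartile. At any score the endothelial list stands at 17.9% and the cardiomyocyte list at 54.8%, and at the upper quartile each of the 7 lists of other cells is at 0% and the cardiomyocyte list at 41.9%.

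The pathways to which the 10 genes belong were followed next, as ligands, receptors and their partners. PDGF signalling had a summit in 4 of its 6 ligand and receptor genes (66.7%, 22.3 to 95.7), and 2 of the 4 were ligands. Pdgfa, a ligand of Pdgfra, scored 47.7 at 138976771 on chromosome 5, above both receptors and above the upper quartile of the list. Pdgfb, the ligand that recruits pericytes to vessels, scored 17.0 at 79996116 on chromosome 15, close to the 18.1 of its receptor gene Pdgfrb. All 4 summits lay in 3' UTRs, and Pdgfc and Pdgfd had none. Over all coding genes 4.22% had a summit. Each of the 7 pathway lists holds at least 1 gene chosen for its summit (here Pdgfra and Pdgfrb), so no share of these lists is independent evidence, and the intervals of the VEGF, collagen and MHC class II lists below include 4.22%.

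In VEGF, angiopoietin and Notch signalling 2 of 21 genes had a summit (9.52%, 1.17 to 30.4). Beside Flt1 this was Nrp1, neuropilin-1, a VEGF co-receptor, at 3.12 in intron 2. The ligands Vegfa, Vegfb, Vegfc and Pgf had none, nor did Kdr, the main signalling receptor for VEGF-A. Endoglin and its TGF-beta and BMP partners had 4 of 24 (16.7%, 4.74 to 37.4). After Eng at 20.2 came Smad3, an intracellular mediator of TGF-beta, at 15.4, the receptor Bmpr2 with 2 summits of 7.25 in the 3' UTR and 4.72 in the 5' UTR, and Id3, a BMP target gene, at 1.53. Acvrl1, Tgfbr1, Tgfbr2 and Tgfbr3 were receptors without a summit.

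Endothelial junction genes had 4 of 18 (22.2%, 6.41 to 47.6). Cldn5 at 23.4 was the one of the 4 known mainly from endothelium. Ctnna1, alpha-catenin, with a strongest score of 107, Ctnnb1, beta-catenin, at 13.3 and Tjp1 (ZO-1) at 6.89 are also components of the intercalated disc of cardiomyocytes. Cdh5, Pecam1, Esam and Ocln had none. Fatty acid binding and uptake genes had 4 of 14 (28.6%, 8.39 to 58.1). Fabp4 scored 8.29 and Gpihbp1, which holds lipoprotein lipase on capillary endothelium, had no summit. Fabp3, the fatty acid binding protein of heart muscle, scored 223, and Lpl, the lipase itself, which heart muscle cells make and pass to the capillary wall, scored 391. Vldlr, a lipoprotein receptor, scored 7.66. Fabp4 and Fabp3 both had 1 summit, at 135 bases from the 3' end of the gene in Fabp4 and at 129 bases in Fabp3.

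Collagens and the enzymes that process them had 3 of 24 (12.5%, 2.66 to 32.4). Col1a1 at 24.9 was followed by Serpinh1, the collagen chaperone HSP47, at 10.3 and Adamts2, a procollagen protease, at 3.17, both in the 3' UTR. Col1a2, which encodes the partner chain of Col1a1 in type I collagen, had none, nor had Col3a1, Col4a1 and Col4a2. The table assigned no gene to a summit at 76595940 on chromosome 10 (score 19.2), which RefSeq bounds put within Col6a2, a chain of type VI collagen. In MHC class II presentation Cd74 was the only gene of 14 with a summit (7.14%, 0.18 to 33.9), and H2-Aa, H2-Ab1, H2-Eb1 and H2-DMa had none.

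The position of the summits was the property not used to choose the genes. Of the 8 summits 6 were labelled as in a 3' UTR (75%, 34.9 to 96.8), 1 as in the last exon and 1 as in an intron. A last exon can hold 3' UTR bases. The last-exon summit, in Fabp4, lay 135 bases from the gene's 3' end, and the canonical 3' UTR of Fabp4 has 798 bases. Summits labelled last exon were counted apart from 3' UTRs in all of these shares. Of all 2020 summits 36.4% (34.3 to 38.6) were in 3' UTRs. Of the 642 genes with exactly 1 summit, which include the 8, 65.9% (62.1 to 69.6) had it in the 3' UTR, inside the interval of the 8. All 8 summits overlapped exactly 1 gene, as did 571 of the 642 (88.9%), so none of them was shared with an overlapping gene in the table.

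Distances to the 3' end of the gene were measured on the genome, introns included, within RefSeq GRCm38 bounds. They were 135 bases for Fabp4, 216 for Cldn5, 236 for Pdgfrb, 624 for Flt1, 737 for Eng, 1348 for Col1a1, 2353 for Cd74 and 2881 for Pdgfra. Of the 8, 5 (62.5%, 24.5 to 91.5) were within 1000 bases of the end, beside 56.5% (52.5 to 60.5) of the 607 genes with 1 summit that could be placed. The median distance was 680.5 bases in the 8 genes and 535 bases in the 607. Along the gene's length the median position was 95.3% in the 8 and 96.7% in the 607. The lowest of the 8 was Cd74 at 73.3%, while the lowest of the 607 was at 0.30%. How many of the 607 lay below the position of Cd74 was not counted. The 3' UTR share and the share within 1000 bases were both near those of the genes with 1 summit, so neither is a result about the 8 genes.

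**Figure D4:**
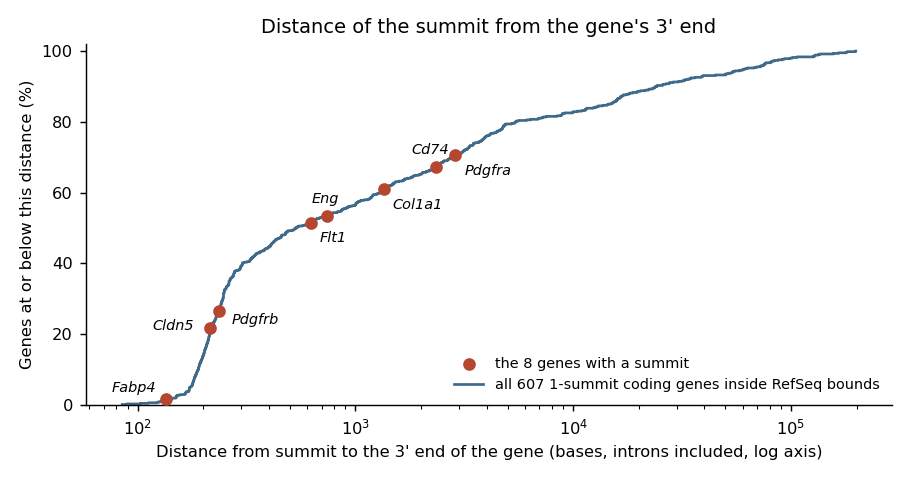
Distance from the summit to the 3' end of the gene (horizontal log axis, bases) for the 8 genes with a summit (points) on the cumulative share of all 607 coding genes with 1 summit inside RefSeq bounds (line, percent). The points spread from 135 bases in Fabp4 to 2881 in Pdgfra, along the part of the curve where most genes lie.

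The genes closest in score were sought among coding genes outside the lists with the same number of summits in this 1 pair of libraries. Col1a1 at 24.88 stood beside Drosha, the nuclease that starts microRNA processing, at 24.97. Cldn5 at 23.35 stood beside Depp1 at 23.34, and Eng at 20.16 beside Tent5c, a poly(A) polymerase, at 20.14. The summits of Depp1 and Tent5c were in 3' UTRs and that of Drosha was in its last exon. A shared score says nothing of shared cells.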

How the data were processed

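RIP and Input RNA of mouse hearts, 1 library each, was sequenced as paired reads of 150 bases. Per the submitters' processing notes, the tools were fastp, BWA 0.7.12, MACS2 2.1.0 and HOMER. The notes name GRCm39, but 98.9% of 1914 lines matched by symbol lay inside their RefSeq GRCm38 gene, so positions are given as GRCm38. The authors deposited 1 score per summit, the -log10 of a p-value or q-value, in a column whose header was lost. Gene assignment, region and position (other columns) were used as deposited.

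Each summit was counted once per gene. Genes, transcript lengths and strand came from GENCODE mouse release 39. All list members, 8 marker lists and 7 pathway lists, were found there. Shares have exact (Clopper-Pearson) 95% intervals, and medians have binomial order-statistic intervals. The intervals, and the counting of summits per gene, were tried on simulated data. Gene assignment, regions and the matching of identifiers were not tested. With 1 library per group there was no test and no p-value. Named were the 10 genes, up to 6 list genes with a summit (by score) and up to 4 without (in list order), and the genes closest in score to the 3 strongest members. Kdr, as a VEGF receptor, and the cardiomyocyte markers with 1 summit or a low score were named after their values were seen. Members, lists and alternatives were chosen with earlier results of these data known. Python 3.11.15, pandas 2.3.3 and scipy 1.17.1 were used. Sequence around the summits was not used here, as the genome given was GRCm39.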

Additional observations from a re-analysis of the deposited data

How the results depend on the processing

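No paired analysis was possible because each group had 1 library. The 8 scores could not change between alternatives, as each gene had 1 summit. The number of the 10 genes with a summit was 8 under RefSeq bounds and among summits in exactly 1 gene, 7 when introns were left out (without Cd74), 4 at the median score, 0 at the upper quartile and 2 by closest transcription start. In that last assignment Cldn5 and Fabp4 remained, and the Pdgfrb summit was given to Csf1r, 21021 bases away. The summits of Col1a1, Cd74, Eng, Pdgfra and Flt1 were given to starts without a gene symbol, that of Flt1 122837 bases away. Over all coding genes 2.29% had a summit at the median score and 1.04% at the upper quartile. The choice of members for their summits bears on the 4 as it does on the 8. Shares over all coding genes were not computed for the other alternatives, so the members' counts there have nothing to be set against. At the upper quartile the endothelial, mural, fibroblast, leukocyte and combined lists of other cells were each at 0%. By closest transcription start the mural and fibroblast lists were at 0% and the combined list at 2.94%. For pathways, the VEGF list was at 0% at the median score and by closest transcription start, the MHC class II list was at 0% under both and without introns, and the PDGF list was at 16.7% by closest transcription start. The members' median minus that of all summits was 0.67, and 0.45 to 5.21 under 5 alternatives. Against the strongest score per gene it was -0.996, and its sign changed to 2.32 with the median over a gene's summits and to 2.03 among genes with 1 summit. Cardiomyocyte markers held 41.9 to 61.3% under all 5 alternatives. Unknown depth limits every statement about genes without a summit.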
